A study of Homo sapiens with 4 samples.

Results

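The planar cell polarity core genes described here are VANGL1, VANGL2, PRICKLE1, PRICKLE2, CELSR1, CELSR2, CELSR3, DVL1, DVL2 and DVL3. They were read by all 22 probe sets whose only gene symbol in the platform annotation is 1 of these 10 names, out of 54613 probe sets and 19775 genes in all. No induced minus control difference in these genes passed the test. VANGL1, the core membrane gene with the lowest p among the members, lay 0.17 lower on the log2 scale in the induced arrays by its brightest probe set, and the 3 Dishevelled genes differed by 0.02 or less by theirs.

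Planar cell polarity is the alignment of cells within the plane of a tissue. One membrane complex, of a Frizzled receptor with Dishevelled (DVL) inside the cell, gathers at one side of a cell, and another, of Van Gogh-like (VANGL) with PRICKLE, gathers at the opposite side. CELSR proteins, large cadherins that are also G protein-coupled receptors, bridge the membranes of neighbouring cells. In migrating cells the same proteins act with WNT ligands on small GTPases and the JNK kinases, without beta-catenin, and Dishevelled also serves the beta-catenin branch.

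LN-229 is a human glioblastoma line long kept in culture, and the samples were 4 cultures of it. The 2 control cultures were not induced, and the 2 induced cultures received doxycycline (spelled Doxocyclin in the labels) for 48 h to express WIF1, which is secreted and holds WNT ligands away from their receptors. The labels call the replicates biological, name no other difference between the groups, and describe no culture given doxycycline without WIF1. They do not say whether the line is 1 clone or whether the control cultures carry the inducible construct. Each culture was hybridised to 1 Affymetrix array, and the values are log2 intensities made by the authors with RMA, so precision was limited by the 2 arrays in each group.

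The array medians ran from 6.15 to 6.19. Arrays correlated at 0.998 within the control group, at 0.997 within the induced group and at 0.996 to 0.998 between groups. WIF1 was read by 1 dim probe set, at 2.98 and 2.90 in the control cultures and 2.93 and 3.03 in the induced cultures. The groups overlapped there, with a difference of 0.04 (SE 0.101). This probe set could not check the labels, as nothing here says that it lies within the WIF1 sequence that was induced. Of the 9 glioma and astrocyte markers 7 had means no lower than the median probe set (6.16), among them SOX2 at 11.02 and NES at 11.9, while GFAP at 5.66 and AQP4 at 4.16 lay below it. The corresponding numbers were 3 of 4 for neurons, 1 of 2 for oligodendrocytes, 2 of 4 for leukocytes, 2 of 3 for endothelium and 1 of 3 for epithelium, with means from 3.79 (PTPRC) to 6.72 (CD3E) for leukocytes, from 3.98 (CDH5) to 6.91 (PECAM1) for endothelium and from 3.22 (EPCAM) to 11.6 (KRT18) for epithelium. At an unadjusted p under 0.05, 4 of the glioma and astrocyte markers and the oligodendrocyte marker MBP were lower and the neuronal marker SYT1 was higher, or 6 of the 25 markers measured, where 4.73% of all genes were lower and 6.48% higher. None of the 25 passed the adjusted threshold, and the part of these markers in the values below was not tested.

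Differences were tested with limma over all probe sets, with Benjamini-Hochberg adjustment. Of the 22 member probe sets 0 had an adjusted p under 0.05, against 0% of all probe sets, and their adjusted p values ran from 0.473 to 0.997. At an unadjusted p under 0.05 stood 2 of the 22, both of VANGL1 and both lower, where 10% of all probe sets stood, 5.27% being lower and 4.75% higher. This share of 9.09% was near the background. Over all probe sets the split was 2593 higher and 2876 lower, and 3477 higher and 1869 lower after each array was centred on its median, a step that left 0 of the members past the unadjusted threshold. The induced arrays lay below both controls in 7 of the 22 probe sets and above both in 0, so that the groups were apart in 31.8%, against 41.4% of all probe sets (23.5% with the induced arrays below). By the brightest probe set of each gene they were apart for 3 of the 10 genes, against 43.9% of all genes. The members' median difference was -0.06 over probe sets and 0.00 over the brightest probe set of each gene, against -0.01 over all probe sets and 0.00 over all genes.

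The members' differences were small and bounded. They ran from -0.25 to 0.05, and the standard error exceeded the difference in 13 of the 22 probe sets. Taken singly, the 95% intervals of limma reached down to -0.50 and up to 0.24, which are induced to control ratios of 0.705 and 1.18. RMA compresses differences near the floor of an array, and 4 of the 22 probe sets, of CELSR1 and CELSR3, had means below that of the median probe set, the lowest at 5.01. The brightest, of DVL3, had a mean of 9.03. Each probe set has its own probe affinities, so these ranks place signals against the floor of the array and give no order of transcript levels.

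**Figure D1:**
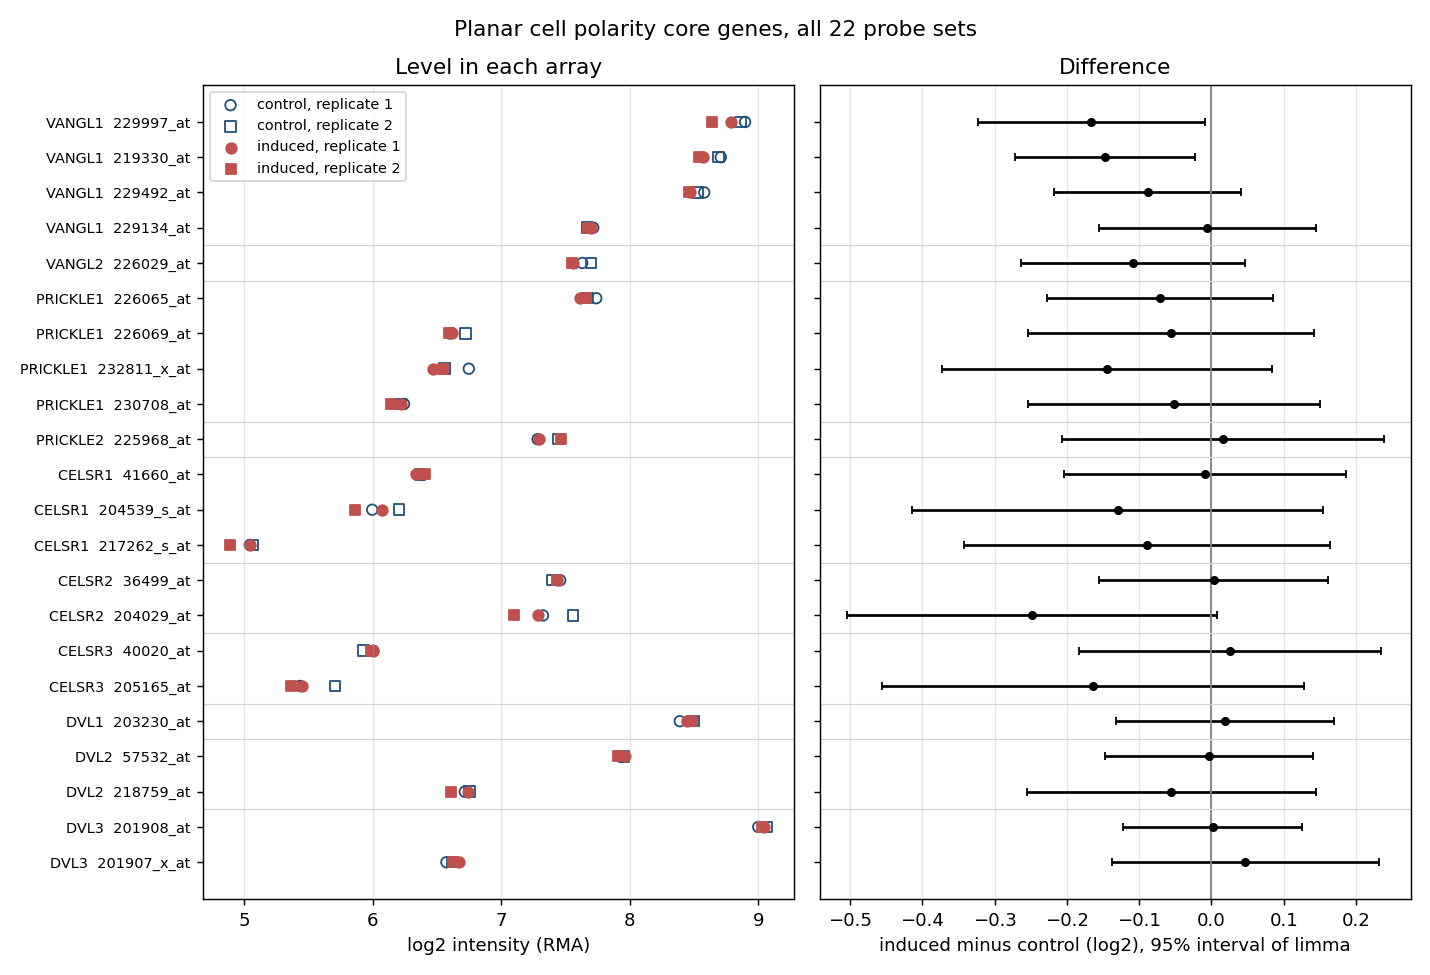
The left panel plots the log2 intensity of each of the 22 probe sets in each of the 4 arrays, with open blue marks for controls and filled red marks for induced cultures. The right panel plots the induced minus control difference with its 95% interval, which includes 0 in 20 probe sets and lies below 0 in 2 of VANGL1.

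VANGL1 and VANGL2 are membrane proteins that mark one side of a polarised cell and recruit PRICKLE. The brightest VANGL1 probe set, 229997_at, read 8.90 and 8.86 without induction, and 8.78 and 8.64 with it. Both induced arrays lay below both controls, and the second induced array was the lowest. The difference was -0.17 (SE 0.065, n = 2 per group, limma adjusted p = 0.490), a ratio of 0.891 with an interval from 0.799 to 0.994. Without the second induced array it was -0.09, and without the first it was -0.24, the only 1 of the 4 left-out arrays after which it stayed past the unadjusted threshold. In bulk RNA, less RNA per cell and fewer cells that express a gene cannot be told apart.

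A second VANGL1 probe set, 219330_at, read 8.71 and 8.69 without induction, and 8.57 and 8.54 with it. Here the gap between groups was wide beside the spread within them. The pooled within-group SD was 0.018, the lowest among the 22 member probe sets, against a median of 0.041 over those 22 and 0.081 over all probe sets. The difference was -0.15 (SE 0.052, limma adjusted p = 0.473). It ran from -0.13 to -0.16 when single arrays were left out, and was past the unadjusted threshold in 0 of those 4 fits. The probe set 229492_at read 8.58 and 8.53 against 8.46 and 8.46 with induction, again without overlap, with a difference of -0.09 (SE 0.054). The dimmest of them, 229134_at, did not share this order: it read 7.71 and 7.67 without induction and 7.70 and 7.67 with it, and differed by -0.01 (SE 0.062). That last difference was above 0 after arrays were centred on their medians (0.019) or normalised by cyclic loess (0.015), while those of the other 3 stayed below 0 under both. Averaged over its 4 probe sets VANGL1 differed by -0.10 (limma adjusted p = 0.516, and 0.390 to 0.901 over all alternatives for this gene).

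VANGL2, read by 226029_at only, had 7.63 and 7.70 without induction, and 7.56 and 7.55 with it. Both induced arrays lay below both controls, which were 0.067 apart. The difference of -0.11 (SE 0.064, limma adjusted p = 0.585) was -0.08 without the second control array and -0.14 without the first. The 3' minus 5' difference of the ACTB control probe sets, a sign of RNA quality or labelling, was -0.036 and 0.021 for the controls, and 0.033 and 0.107 for the induced cultures, and that of GAPDH was -0.067 and -0.069 for the controls, and -0.043 and -0.047 for the induced cultures. Both were apart between the groups, higher with induction, and their part in the VANGL values was not tested.

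The VANGL promoters are shown because VANGL1 held both member probe sets past the unadjusted threshold, and VANGL2 is its paralog. Each line is a RefSeq window of 300 bases on GRCh38.p14, from 250 bases before to 50 after a start site and written 5′ to 3′ on the gene's strand, with GC boxes (GGGCGG, searched on both strands) in capitals. VANGL1 has windows at chr1:115641720-115642019 and chr1:115642379-115642678, and VANGL2 at chr1:160400314-160400613, all on the plus strand.
VANGL1 upstream window: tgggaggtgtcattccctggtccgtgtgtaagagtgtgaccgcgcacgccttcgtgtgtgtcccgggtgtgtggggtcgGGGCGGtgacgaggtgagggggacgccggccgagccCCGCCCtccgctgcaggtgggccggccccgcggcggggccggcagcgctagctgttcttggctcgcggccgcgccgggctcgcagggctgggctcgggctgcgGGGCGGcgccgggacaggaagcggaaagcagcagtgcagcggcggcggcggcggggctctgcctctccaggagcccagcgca
VANGL1 downstream window: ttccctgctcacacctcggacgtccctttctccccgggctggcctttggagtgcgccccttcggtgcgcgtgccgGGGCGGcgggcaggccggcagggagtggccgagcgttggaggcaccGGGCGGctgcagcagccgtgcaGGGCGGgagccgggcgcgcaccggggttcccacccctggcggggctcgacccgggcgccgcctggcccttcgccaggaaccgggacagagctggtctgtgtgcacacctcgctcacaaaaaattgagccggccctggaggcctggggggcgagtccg
VANGL2: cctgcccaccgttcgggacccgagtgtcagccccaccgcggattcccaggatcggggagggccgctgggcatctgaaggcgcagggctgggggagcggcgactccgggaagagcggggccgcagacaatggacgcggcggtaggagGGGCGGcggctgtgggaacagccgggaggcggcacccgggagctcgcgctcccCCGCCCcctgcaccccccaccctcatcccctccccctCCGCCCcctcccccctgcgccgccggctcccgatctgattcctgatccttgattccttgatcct
The 3 windows hold 3 GC boxes each and are 75.7%, 74.0% and 73.3% G or C, against a median of 58.7% over 35116 promoter windows. Of the 10 members, 9 matched the table, all but CELSR1, with 11 windows. These were 49.0% to 82.7% G or C, and 9 of them lay above the median of all windows. A GC box lies in 9 of these 11 and in 44.95% of all windows, and a TATA box (TATAAA, both strands) in 0 of 11 and in 11.5% of all. The TCF/LEF core letters CTTTGA or CTTTGT, searched on both strands, were in 0 of the 11 and in 26.2% of all windows, and the AP-1 letters TGANTCA in 0 of 11 and 7.71%. A match describes letters only, and the part of base composition in these shares was not tested.

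PRICKLE1 and PRICKLE2 are cytoplasmic proteins with LIM domains that bind VANGL and keep Dishevelled away from its side of the cell. The brightest PRICKLE1 probe set, 226065_at, read 7.74 and 7.67 in control cultures, then 7.61 and 7.66 in induced ones. The groups did not overlap, but the highest induced and the lowest control array were close, and the difference was -0.07 (SE 0.065, limma adjusted p = 0.723), or -0.04 without the first control and -0.10 without the second. Another set, 232811_x_at, whose suffix marks probes shared with other sequences, read 6.75 and 6.56 in control cultures, then 6.47 and 6.54 in induced ones. The first control stood above the rest there, and without it the difference moved from -0.14 to -0.05, while without the second control it was -0.24. In the remaining PRICKLE1 sets, 226069_at and 230708_at, the groups overlapped, with differences of -0.06 and -0.05, of which the first was 0.005 without the second control and -0.12 without the first. All 4 PRICKLE1 differences stayed below 0 after median centring and after cyclic loess, and 0 of them passed.

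PRICKLE2, read by 225968_at, had 7.28 and 7.44 in control cultures, then 7.29 and 7.46 in induced ones. In each group the second replicate was the higher, the groups overlapped almost fully, and the difference was 0.02 (SE 0.092, limma adjusted p = 0.971). The difference changed sign when single arrays were left out, from -0.07 without the second induced array to 0.10 without the first.

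**Figure D2:**
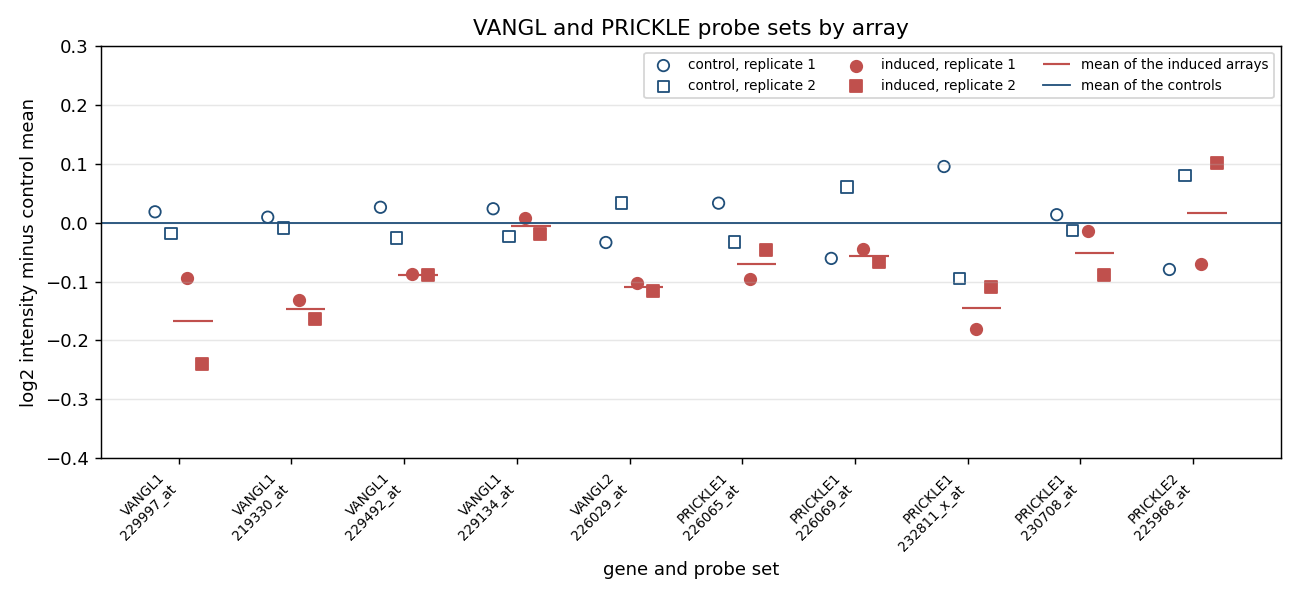
For the 5 VANGL and 5 PRICKLE probe sets, the vertical axis gives the log2 intensity of each array minus the mean of the 2 controls, and red bars mark the mean of the 2 induced arrays. The induced arrays lie below both controls in 4 VANGL and 2 PRICKLE1 probe sets, and the widest gap between induced replicates among the VANGL sets is in 229997_at.

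The CELSR genes encode the cadherins that link the polarity complexes of adjoining cells. Each has a probe set near 0 and another that is lower and more spread. For CELSR2 the brightest set, 36499_at, read 7.46 and 7.40 without induction and 7.43 and 7.43 with it, so that the difference was 0.00 (SE 0.065). The other, 204029_at, read 7.32 and 7.56 without induction, and 7.28 and 7.10 with it. Its difference of -0.25 (SE 0.106, limma adjusted p = 0.504) was the furthest from 0 of all 22, and its controls alone were 0.23 apart. It was -0.13 without the second control array and -0.16 without the second induced array, but -0.36 without the first control, where it was past the unadjusted threshold, and -0.34 without the first induced array. Averaged, the 2 CELSR2 sets gave -0.12, and the difference between them was not tested.

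For CELSR3 the brightest set, 40020_at, read 6.004 and 5.929 in control cultures against 6.001 and 5.984 in induced ones, and the groups overlapped. The difference was 0.03 (SE 0.086). The dimmer set, 205165_at, read 5.43 and 5.71 without induction, and 5.45 and 5.37 with it. The second control stood above the rest there: the difference of -0.16 (SE 0.121) was -0.03 without it and -0.30 without the first control. For CELSR1 the brightest set, 41660_at, read 6.39 and 6.37 against 6.34 and 6.41, a difference of -0.01 (SE 0.081) that was above 0 after median centring and cyclic loess. The sets 204539_s_at and 217262_s_at differed by -0.13 (SE 0.117) and -0.09 (SE 0.104), with overlap in both. The first of these was -0.03 without the second control and -0.02 without the second induced array, and -0.23 without the first array of either group. The other ran from -0.17 without the first induced array to -0.01 without the second.

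Of the 7 CELSR sets 4 shared an order of arrays that was noticed after their values were seen. The second control was the highest and the second induced array the lowest in 7 of the 22 member probe sets, or 31.8%, against 14.1% of all probe sets. The 7 were 2 of CELSR1 and 1 each of CELSR2, CELSR3, VANGL2, PRICKLE1 and DVL2. By the brightest probe set of each gene the order was seen in 1 of the 10 members, or 10%, against 14.2% of all genes. It was seen in 0 of the 3 CELSR genes by that measure. This order places both extremes in single arrays, and no test was made of it.

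The 3 Dishevelled genes encode the cytoplasmic adaptors that carry signals from Frizzled into the polarity, calcium and beta-catenin branches. DVL3, by 201908_at, read 8.999 and 9.068 in control cultures, then 9.045 and 9.026 in induced ones. The induced arrays lay between the controls, the difference was 0.00 (SE 0.051, limma adjusted p = 0.997), and the interval of the ratio ran from 0.919 to 1.09. DVL1, by 203230_at, read 8.39 and 8.50 against 8.44 and 8.49, a difference of 0.02 (SE 0.062) with an interval of the ratio from 0.913 to 1.12. DVL2, by 57532_at, read 7.93 and 7.95 against 7.96 and 7.91, a difference of 0.00 (SE 0.060) with an interval from 0.903 to 1.10. The second DVL2 set gave -0.06 (SE 0.083), from -0.12 to 0.01 when single arrays were left out. The second DVL3 set, 201907_x_at, whose suffix marks shared probes, gave 0.05 (SE 0.076). In all 5 Dishevelled sets the groups overlapped. These values do not show that the levels were equal.

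**Figure D3:**
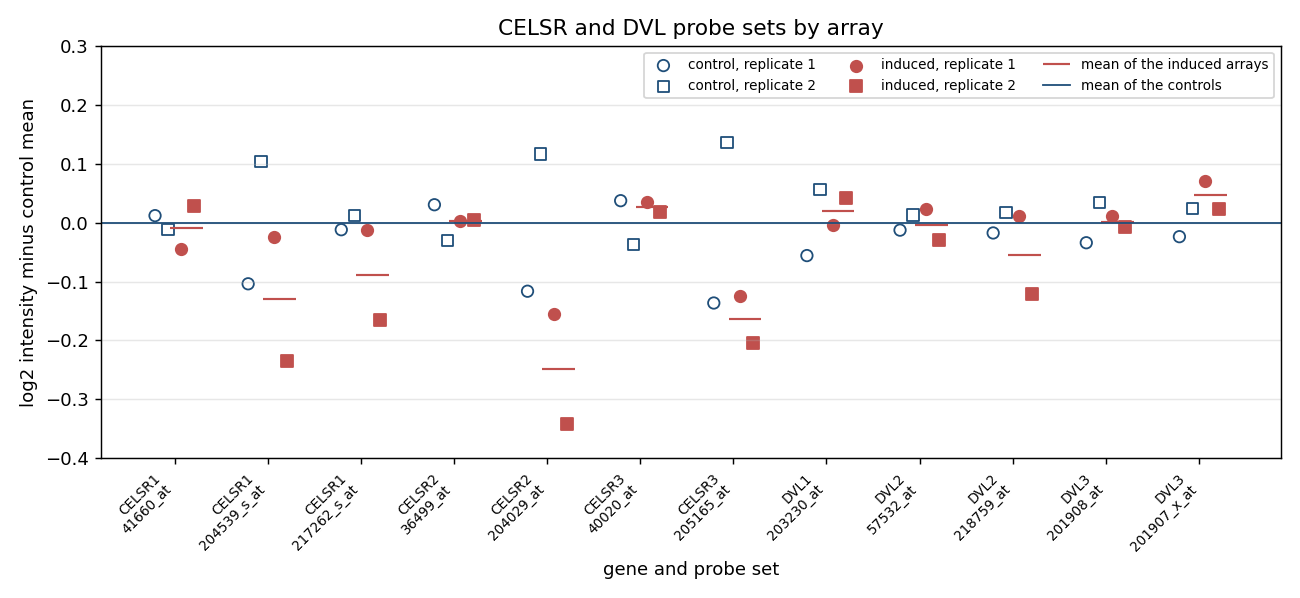
For the 7 CELSR and 5 DVL probe sets, the vertical axis gives the log2 intensity of each array minus the mean of the 2 controls, and red bars mark the mean of the 2 induced arrays. In 204539_s_at, 217262_s_at, 204029_at, 205165_at and the DVL2 set 218759_at the second control is highest and the second induced array lowest. The DVL induced means lie between -0.06 and 0.05.

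The rest of the pathway was looked at through 57 listed genes, of which 54 were measured with 1 symbol, each by its brightest probe set. Of these 0 passed the adjusted threshold, against 0% of all genes. At an unadjusted p under 0.05 stood 8, with 4 above and 4 below the controls, where 11.2% of all genes stood, 6.48% higher and 4.73% lower. The median difference was 0.01 against 0.00 over all genes. After median centring 7 genes were higher and 2 lower at that level, and after cyclic loess 6 were higher and 4 lower, not all of them among the 8. ROR2 and CSNK1D were not past it after median centring. Without the second control 3 stood past the unadjusted threshold, and without the second induced array 4. Of the 8, MAPK9 was past it with any single array left out, and each of the other 7 was not in at least 1 of the 4 fits. With the replicate number as a block FZD7, SMURF2, MAPK9 and DAAM2 stayed past it.

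Among 15 ligands and receptors, 3 stood past the unadjusted threshold, 1 above and 2 below the controls. FZD7, a Frizzled receptor, read 9.209 and 9.122 without induction and 8.962 and 8.996 with it, and differed by -0.19 (SE 0.054, limma adjusted p = 0.472). ROR2, a receptor for WNT5A, was dim and differed by -0.27 (SE 0.101). RYK, an atypical tyrosine kinase that binds WNT ligands, differed by 0.12 (SE 0.042), or 0.08 without the second control and 0.15 without the first, but its 3 probe sets ran from -0.17 to 0.12. WNT5A, the ligand most tied to this branch, differed by 0.12 (SE 0.063), and PTK7, a co-receptor, by -0.04. Each has 2 probe sets, at 0.12 and 0.21 for WNT5A and at -0.19 and -0.04 for PTK7. The remaining members of the group lay between -0.08 and 0.10 by their brightest probe sets. Some of their other sets lay outside that range, such as 1 of ROR1 at -0.13.

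Of 16 core paralogs and modulators, SMURF2, a ubiquitin ligase that targets PRICKLE, was higher and CSNK1D, a kinase that phosphorylates Dishevelled, lower at that level. SMURF2 read 10.69 and 10.69 without induction and 10.83 and 10.80 with it, and differed by 0.13 (SE 0.036, limma adjusted p = 0.472), and its 4 probe sets ran from 0.10 to 0.24. CSNK1D differed by -0.12 (SE 0.047), or -0.08 without the second control and -0.17 without the first, and its 3 probe sets ran from -0.18 to 0.12. SCRIB, a scaffold that binds VANGL, differed by -0.03, and PRICKLE3 by -0.16 (SE 0.112).

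Of 12 downstream effectors, 2 were higher and 1 lower at that level. DAAM2, a formin that binds Dishevelled, read 8.65 and 8.59 without induction and 8.49 and 8.28 with it, and differed by -0.24 (SE 0.079, limma adjusted p = 0.472). Without the second induced array it was -0.13 and no longer past the unadjusted threshold, and without the first it was -0.34. MAPK9, the kinase JNK2, read 9.05 and 8.99 against 9.22 and 9.22, a difference of 0.20 (SE 0.049, limma adjusted p = 0.472). Its 3 probe sets disagreed, from -0.21 to 0.20, and gave -0.05 when averaged. The JNK target JUN differed by 0.16 (SE 0.063), with probe sets from -0.05 to 0.26. It was 0.08 without the second induced array and 0.10 without the second control, against 0.24 and 0.22 without the first of each, and was not past the unadjusted threshold with the replicate block. The GTPases RHOA, RAC1 and CDC42 differed by 0.01, 0.04 and 0.04, and the kinases ROCK1 and ROCK2 by 0.12 and 0.01. Over all their probe sets the differences ran from -0.06 to 0.19 for RHOA, -0.05 to 0.35 for RAC1, -0.11 to 0.04 for CDC42, -0.19 to 0.12 for ROCK1 and -0.01 to 0.01 for ROCK2. None of the 5 ciliogenesis and planar polarity effectors or the 6 genes of the Fat-Dachsous module stood past the unadjusted threshold in this fit. After median centring 1 gene of the module did, and after cyclic loess 1 of each group, all higher. Of these effectors FUZ differed by -0.17 (SE 0.073), and of the module the dim cadherin FAT4 by 0.35 (SE 0.155).

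**Figure D4:**
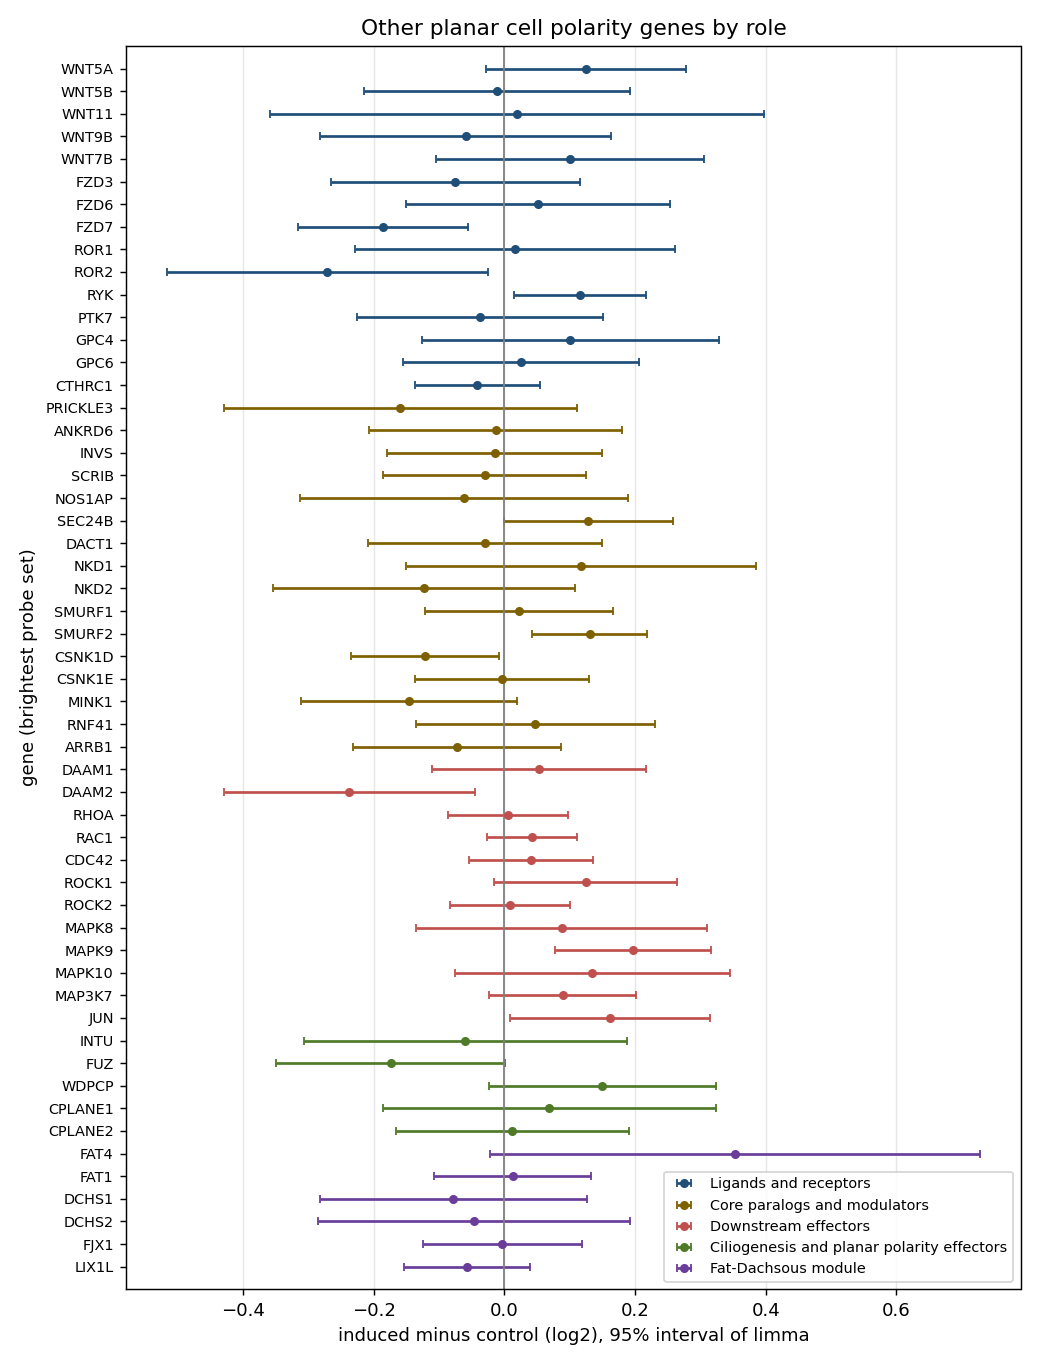
The horizontal axis gives the induced minus control difference in log2 intensity of 54 other planar cell polarity genes, each by its brightest probe set, with the 95% interval of limma, coloured by role. The interval lies above 0 for RYK, SMURF2, MAPK9 and JUN and below 0 for FZD7, ROR2, CSNK1D and DAAM2.

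The profile of VANGL1 over the 4 arrays, as deviations from its own mean, was most like those of HCG18, MED1 and KIF22 among 12721 other genes whose brightest probe set was no dimmer than the median one. Their root mean square distances from it were 0.0013, 0.010 and 0.010 log2 units, and their differences were -0.16, -0.18 and -0.17. With 4 arrays such likeness is common: 636 genes lay within 0.05.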

How the data were processed

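Gene expression was measured in 4 cultures of LN-229 on 1 Affymetrix array each, 2 control and 2 induced, grouped by sample title. The deposited values are log2 intensities per probe set, made by the authors with RMA (affy, in R), as named in the submitters' processing notes; its version is not given in the sources used here. RMA makes probe intensity distributions equal between arrays, so a shift shared by most genes would not be seen. Depth has no counterpart here, and array number limits precision.

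Of 54675 rows 62 control probe sets were left out. Gene names came from the platform annotation, where 41091 probe sets have 1 symbol, 1801 several and 11721 none, and 0 of those with several hold a member. Differences were fitted with limma 3.58.1 in R 4.3.3 (lmFit, eBayes with an intensity trend, 2-sided, 6.27 degrees of freedom of which 4.27 from the prior) and adjusted by Benjamini-Hochberg over 54613 probe sets. The probe set of a gene with the highest mean, called its brightest, stands for the gene. The fit was tested on 10 simulated data sets with 200 changed probe sets each. There 19.4% of changes of 0.5 log2 units and 75.5% of changes of 1 passed the adjusted threshold, so most changes of the smaller size were missed. No size as small as the members' differences was simulated. The simulated noise was independent between probe sets and arrays. Of its unchanged probe sets 5.01% had an unadjusted p under 0.05, against 10% of all probe sets in the data. The simulated shares may therefore not hold for these arrays.

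The members and lists were chosen with earlier results of these data known. Named were all members, up to 10 other pathway genes of smallest unadjusted p under 0.05, WIF1, and the 3 genes most like the member of smallest p. WNT5A, PTK7, SCRIB, PRICKLE3, the GTPases, ROCK1, ROCK2, FUZ, FAT4 and the printed markers were picked after their values were seen. Of 57 pathway genes 54 and of 26 markers 25 were used, with RSG1 found as CPLANE2. Same-numbered replicates were not treated as pairs, since the labels do not say that the numbers mark pairs. Over all probe sets their deviations from the group means correlated at 0.056, which cannot decide whether the cultures were paired. The alternatives tried were the replicate number as a block, robust eBayes or none of the trend, only probe sets no dimmer than the median or with a mean of 4 or more, median centring, cyclic loess, averaging or another choice of probe sets, adjusted p thresholds of 0.01 or 0.1, and every array left out in turn. A group left with 1 array is then given the spread of the remaining group.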

Additional observations from a re-analysis of the deposited data

How the results depend on the processing

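The count of 0 member probe sets past the adjusted threshold held under each of the 13 alternatives run for it. This count had little room to move. Of all 54613 probe sets 0 passed in the main fit, 2 with robust eBayes, 5 after median centring and 11 after cyclic loess. The stricter threshold of 0.01 could only repeat a count of 0. The 2 member probe sets past an unadjusted p under 0.05 were 2 with the replicate block and 3 with robust eBayes, but 0 without the intensity trend, 0 after median centring, and 0 to 1 when single arrays were left out. The 8 other pathway genes past that threshold were 4 with the replicate block, 3 without the trend and 3 to 7 when single arrays were left out. Of 126 alternative values of the members' differences 106 kept their sign and 20 changed sign, the cause of which was not tested. None of the 126 passed the adjusted threshold. VANGL1 was no longer past the unadjusted threshold in some of them, such as without the intensity trend, after median centring and with its probe sets averaged. CELSR1 was at 0.016 after median centring and 0.015 after cyclic loess, and DVL2 at 0.021 and 0.014. With probe sets averaged, CELSR2 was at -0.12, CELSR3 at -0.069, MAPK9 at -0.049 and RYK at -0.0065. By the second brightest probe set CELSR2 was at -0.25 and CELSR3 at -0.16. When single arrays were left out, PRICKLE2 ran from -0.070 to 0.102, CELSR1 from -0.045 to 0.028, CELSR2 from -0.027 to 0.034, CELSR3 from -0.011 to 0.063, DVL1 from -0.037 to 0.075, DVL2 from -0.030 to 0.023 and DVL3 from -0.032 to 0.036. WIF1 ran from -0.0070 to 0.092. VANGL1, VANGL2 and PRICKLE1 stayed below 0 in each alternative run for their single values. With 2 arrays per group 4 arrays allow 3 splits, of which the labelled one is 33.3%, so no exact permutation test could pass 0.05.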
